A study of Mus musculus with 194 samples.

Results

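Gene desert windows are the stretches of the mouse genome that lie farthest from any protein-coding gene. The genome was divided into windows of 50 kb, and a window of chromosomes 1 to 19 was kept where it lay at least 500 kb from every one of 20665 protein-coding gene bodies in the RefSeq annotation of GRCm38.p6. This gave 4563 of 49223 windows (9.27%), and the rule used no insertion. Of these, 3780 held an insertion in at least 1 table, and 772 of the remaining 783 lay before the first insertion on their chromosome. Adjacent desert windows were joined into 241 desert regions, of which 220 held an insertion. The median region spanned 12 windows and the largest 70.

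The study recorded where a transposon inserted in the brain of live mice by calling cards delivered in adeno-associated virus (AAV), injected on postnatal day 0 to 1. The deposited tables number 47, for 46 animals in 11 groups and for N2a, a mouse neuroblastoma cell line, and were made from 194 GEO samples. In the self-reporting transposon (SRT) groups the insertion was read from RNA, of a cortex cut into 10 parts that were indexed apart in all of them but Rbp4Cre_TRAP, and in the BrokenHeart group it was read from cortical DNA by inverse PCR of a pool of barcoded transposons. A table holds 1 line per insertion, and each line was counted as 1 insertion. The same position can therefore add more than 1 insertion, for instance when separately indexed parts of a cortex both hold it. The groups were C57bl6J (2 animals, given viruses that do not need Cre), Syn1Cre and Syn1CreNeg (6 animals each), GFAPCre and GFAPCreNeg (6 each), Frontflip_GFAPCre and Frontflip_GFAPCreNeg (3 each, a construct that the labels name only), Rbp4Cre_TRAP (4, whole forebrain, 2 libraries per animal), BrokenHeart (3), Syn1Cre_SP1_P10 (3) and Syn1Cre_SP1_P28 (4). What the SP1 construct holds is not given in the labels, and in what follows SP1 P10 and SP1 P28 are these groups, collected on postnatal days 10 and 28, and Syn1Cre is their group without the SP1 label. Collection days of the other groups are not given in the labels. Syn1Cre, GFAPCre and Rbp4Cre are lines used to drive Cre in neurons, in astrocytes and in deep-layer cortical neurons. N2a was 1 table that pooled 3 experiments. Replicate numbers in the labels were taken as animals, and p-values measure the spread between them. The tables hold no transcript levels, so the labelled cell types were not checked against markers here.

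Gene deserts are long intervals without coding genes, and many of them in mammals flank genes that control development. Some hold enhancers that act on such a gene from far away, and others have few conserved elements and lie in chromatin that is closed in most cells. The transposase used in calling cards inserts at the sequence TTAA and, when it is not tethered to another protein, tends to insert in open chromatin and near enhancers, whereas SP1 is a zinc-finger factor that binds GC-rich sequence, mostly in promoters.

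The only desert sequence at hand was that of the promoters of non-coding genes, which RefSeq (GRCm38.p6) places in desert windows: 207 promoter windows of 300 bases, from 250 before to 50 after the start, of 185 genes. The motif searched was TTAA, which reads the same on both strands. It was present in 150 of these promoters (72.5%), against 52.4% of all 32851 promoter windows of the same length. The 150 held 334 TTAA sites, and 107 of the sites were used by at least 1 of the 46 animals. All 554 insertions read from RNA in these promoters, N2a included, lay on a TTAA, as did all 4 BrokenHeart insertions after their positions were shifted by -1 base. The 3 sequences below, each read 5′ to 3′ on the strand of the gene with TTAA in capitals, show the desert promoter with the most insertions, one within the most used desert, and one without any TTAA inside the most used window.
Gm38584, chr7:69490988-69491287, minus strand, between Arrdc4 and Nr2f2: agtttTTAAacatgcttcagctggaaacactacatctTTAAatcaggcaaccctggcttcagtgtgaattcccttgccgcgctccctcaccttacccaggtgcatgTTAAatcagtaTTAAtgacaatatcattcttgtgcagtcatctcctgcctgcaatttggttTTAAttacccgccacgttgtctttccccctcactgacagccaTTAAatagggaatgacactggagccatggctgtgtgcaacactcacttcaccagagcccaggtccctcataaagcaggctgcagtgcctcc
Gm29260, chr1:41742772-41743071, plus strand, between Tmem182 and Pou3f3: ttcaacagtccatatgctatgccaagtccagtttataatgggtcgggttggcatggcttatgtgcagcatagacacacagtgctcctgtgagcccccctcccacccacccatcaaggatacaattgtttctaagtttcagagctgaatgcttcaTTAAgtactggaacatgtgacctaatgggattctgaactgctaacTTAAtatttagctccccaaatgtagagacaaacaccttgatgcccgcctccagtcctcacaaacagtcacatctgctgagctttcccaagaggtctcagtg
Gm30340, chr3:17336483-17336782, minus strand, between Ythdf3 and Cypt12: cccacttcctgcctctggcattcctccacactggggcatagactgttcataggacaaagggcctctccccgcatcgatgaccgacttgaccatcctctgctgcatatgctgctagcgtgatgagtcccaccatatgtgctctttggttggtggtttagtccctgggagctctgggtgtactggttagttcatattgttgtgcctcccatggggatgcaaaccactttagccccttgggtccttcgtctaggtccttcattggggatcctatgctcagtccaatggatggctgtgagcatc

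The long non-coding RNA Gm38584 begins in a desert beside Nr2f2, which encodes a nuclear receptor of interneuron and vessel development. Its promoter took 190 insertions in 38 of 46 animals, and all 6 of its TTAA sites were used. Counted from the first printed base, the site at position 38 took 58 insertions in 28 animals, the site at position 210 took 55 in 28, and the site at position 6 took 51 in 22. The other 3 sites were used less: position 168 took 16 insertions, position 118 took 9 and position 107 took 1. In the Gm29260 promoter the site at position 155 took 5 insertions in 5 animals and that at position 200 took 16 in 13 animals. The Gm30340 promoter, which lies in the window with the highest mean use, has no TTAA and took no insertion. These few bases show that use differed between TTAA sites a short distance apart.

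Deserts took a smaller share of insertions than their share of the genome in every animal, and the share differed between groups. Of all insertions, desert windows held 3.39% and 3.73% in the C57bl6J animals, for a mean of 3.56% ± 0.24 (SD, n = 2). BrokenHeart animals had 3.31%, 3.45% and 2.81%, for a mean of 3.19% ± 0.34 (n = 3), and Rbp4Cre_TRAP animals 3.08%, 2.94%, 2.89% and 2.69%, for a mean of 2.90% ± 0.16 (n = 4). These 3 groups had the highest shares, and no animal of another group except 2 of Syn1Cre exceeded the lowest BrokenHeart animal. The Syn1Cre animals ranged from 2.26% to 2.87% with a median of 2.49% (mean 2.56% ± 0.25, n = 6), and the GFAPCre animals from 2.33% to 2.70% with a median of 2.44% (mean 2.47% ± 0.15, n = 6). Their Cre-negative groups lay lower, from 1.85% to 2.07% in Syn1CreNeg (median 1.98%, mean 1.97% ± 0.079) and from 1.77% to 2.30% in GFAPCreNeg (median 2.12%, mean 2.10% ± 0.19). Frontflip_GFAPCre animals had 2.43%, 2.42% and 2.23% (mean 2.36% ± 0.11) and Frontflip_GFAPCreNeg animals 1.68%, 1.75% and 1.24% (mean 1.56% ± 0.28). The lowest shares were those of the SP1 groups, at 1.58%, 1.52% and 1.53% in SP1 P10 (mean 1.54% ± 0.036) and 1.17%, 1.01%, 1.09% and 1.46% in SP1 P28 (mean 1.18% ± 0.20). N2a, with no replicate, had 2.20% (95% Wilson interval 2.17% to 2.23%, which covers counting error only).

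**Figure D1:**
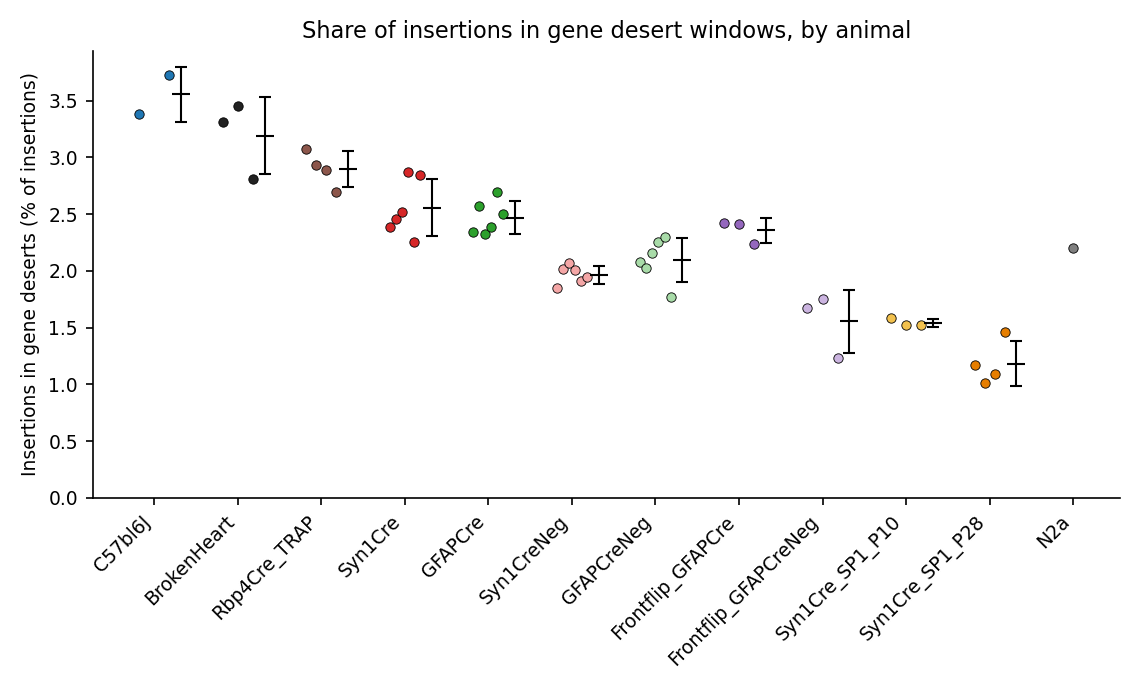
Percent of all insertions that lay in gene desert windows, 1 point per animal (N2a, 1 pooled table), with group mean and SD as bars. The SP1 animals sit between 1.01% and 1.58%, below every other point except the lowest Frontflip_GFAPCreNeg animal at 1.24%, and the C57bl6J animals are among the highest at 3.39% and 3.73%.

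The tables differed widely in size, from 2341 to 2186743 insertions per animal. Within Syn1Cre the desert share was higher in animals with more insertions (Pearson's r = 0.95, permutation p = 0.0014, adjusted p = 0.0056 over 4 groups, Spearman's rho = 1, permutation p = 0.0028, n = 6), and r was 0.999 without the 2 animals farthest from the median size. No such relation passed the test in the other groups of 6, where r was -0.097 in Syn1CreNeg (adjusted p = 0.94), 0.038 in GFAPCre (0.94) and 0.62 in GFAPCreNeg (0.44, falling to -0.65 without 2 animals). Smaller groups were not tested. In SP1 P28 the share rose with table size, from 1.01% at 108965 insertions to 1.46% at 577609. In Rbp4Cre_TRAP it rose from 2.69% at 24408 to 3.08% at 57014. It also rose with size over the animals of BrokenHeart and of C57bl6J, but not in SP1 P10 or the Frontflip groups. Animals of like size are therefore given beside the comparisons below, and the part of table size in them was not tested further.

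Use fell steadily with distance from genes. Windows were grouped by their distance from the nearest protein-coding gene, from the first insertion on each chromosome onward. In C57bl6J the mean use per window, in insertions per 1000000 insertions of the table (IPM), was 25.3 in the 27979 windows that overlap a gene, 14.8 within 100 kb, 13.7 from 100 to 500 kb, 10.8 from 500 kb to 1 Mb and 6.43 in the 1244 windows 1 Mb or more away. BrokenHeart followed nearly the same values, from 25.3 over genes to 9.59 ± 1.0 and 6.01 ± 0.67 in the 2 desert classes. Syn1Cre fell to 7.98 ± 0.63 and 4.23 ± 0.75 in the desert classes, and Syn1CreNeg to 6.38 ± 0.17 and 2.75 ± 0.32. The fall was larger in the SP1 groups than in Syn1Cre: SP1 P10 reached 5.03 ± 0.080 and 2.12 ± 0.18, and SP1 P28 3.88 ± 0.53 and 1.57 ± 0.51, although both groups had more insertions over genes (28.5 and 29.2) than Syn1Cre (26.9). Frontflip_GFAPCreNeg, with the smallest tables, went from 27.7 over genes to 1.34 ± 0.57 at 1 Mb or more. The 500 kb limit did not mark a step over the 11 groups: the 428 windows just inside it, 500 to 550 kb from a gene, had a median of 3.84 IPM, and the 494 just outside it, 450 to 500 kb away, had 3.92.

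**Figure D2:**
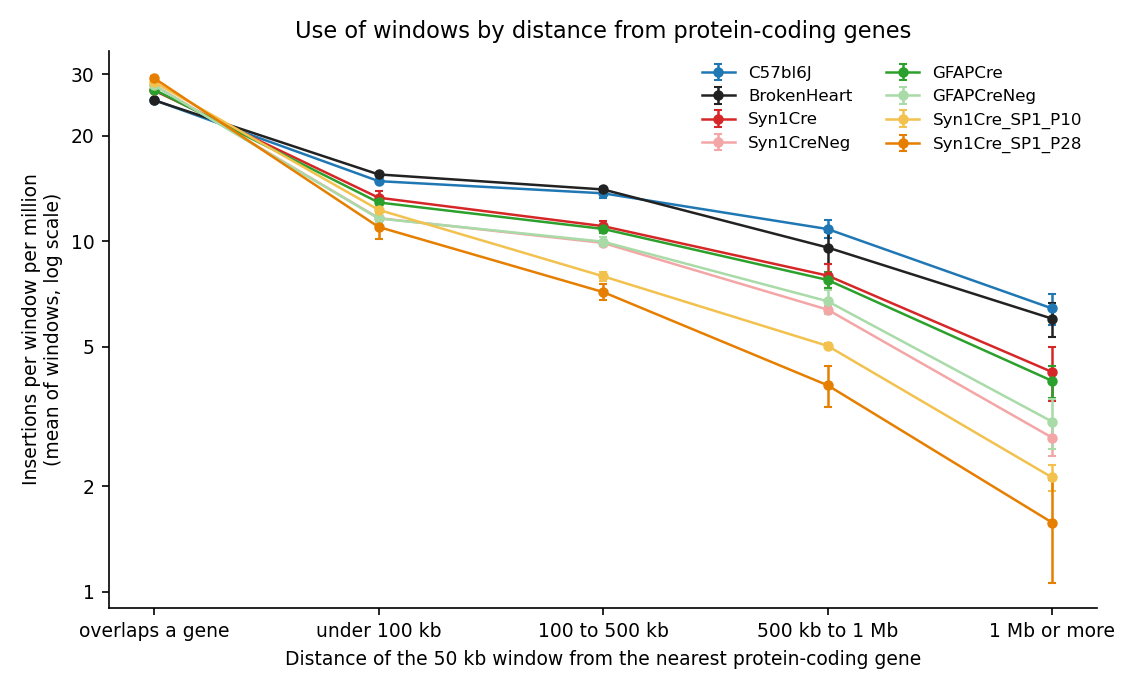
Mean IPM per 50 kb window (log scale) against distance from the nearest protein-coding gene, for 8 groups, as the mean of animals with SD. All lines fall from left to right, from between 25 and 30 over genes to 6.43 in C57bl6J and 1.57 in SP1 P28 at 1 Mb or more.

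A few deserts took much of the desert signal. Averaged over the 11 groups, the single most used of 220 regions held 10.0% of desert insertions, the first 3 held 21.4%, the first 10 held 34.6% and the first 100 held 85.6%. The most used region was chr1:41400001-42150000, between Tmem182 and Pou3f3, a POU-domain factor of upper-layer cortical neurons, with 2309 IPM as the mean of groups. Next came chr3:16750001-17400000 between Ythdf3, which encodes a reader of methylated RNA, and Cypt12, with 1709, and chr13:82300001-83000000 between the centrin gene Cetn3 and Mef2c, a MADS-box factor needed for cortical neurons and synapses, with 917. The following regions were chr11:24700001-25850000 beside Bcl11a, a zinc-finger repressor of cortical projection neurons (656), and chr18:26300001-29750000 between Celf4, an RNA-binding protein of neurons, and Pik3c3 (561). The latter spanned 69 windows and the Bcl11a region 23, so the first 3 regions, of 13 to 15 windows, were the more concentrated.

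How concentrated the desert insertions were differed between groups. The first 3 regions held 7.78% ± 0.92 of desert insertions in BrokenHeart, 15.2% ± 1.3 in C57bl6J, 18.6% ± 3.7 in Syn1Cre and 20.2% ± 3.0 in GFAPCre. They held 28.4% ± 3.3 in Syn1CreNeg, 25.4% ± 3.7 in GFAPCreNeg, 25.7% ± 0.96 in SP1 P10 and 27.1% ± 6.9 in SP1 P28. Because the regions were ranked on these samples, the values are a description. The values were 18.3% ± 0.91 in Rbp4Cre_TRAP, 28.2% ± 2.1 in Frontflip_GFAPCre and 43.5% ± 7.1 in Frontflip_GFAPCreNeg. The lowest value was thus that of the DNA readout.

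The single most used window was chr3:17300001-17350000, 1083 kb from Ythdf3 and 598 kb from Cypt12, which overlaps the long non-coding RNA Gm30340 and was used in all 46 animals. Its IPM values were 743 and 766 in C57bl6J, 862 to 1038 in Syn1Cre (median 966), 650 to 892 in Syn1CreNeg (median 789), 756 to 1227 in GFAPCre (median 863), and 883 to 1290 in GFAPCreNeg (median 1033). The SP1 animals had 587, 501 and 598 at P10 and 548, 532, 535 and 594 at P28, below every Syn1Cre animal. BrokenHeart had 137, 255 and 141, all below every other animal, of which the nearest was a Frontflip_GFAPCreNeg animal at 353. N2a had 1 insertion there, or 1.24 IPM. It was the most used desert window of 7 of the 11 groups.

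In chr1:41800001-41850000, the leading window beside Pou3f3, the order of the groups was another one. C57bl6J animals had 600 and 584 IPM, Syn1Cre 339 to 776 (median 382), Syn1CreNeg 827 to 1209 (median 934), GFAPCre 404 to 804 (median 652) and GFAPCreNeg 615 to 1000 (median 743). SP1 P10 had 403, 434 and 336, SP1 P28 574, 505, 632 and 293, and BrokenHeart 189, 173 and 188. N2a stood at 324, and this was its most used desert window. The Syn1CreNeg animals all lay above the Syn1Cre animals, and the BrokenHeart animals lay below every SRT animal.

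The third of these windows, chr13:82900001-82950000, lies 554 kb from Mef2c. It had 781 and 683 IPM in C57bl6J, 481 to 630 in Syn1Cre (median 590), 306 to 372 in Syn1CreNeg (median 352), 434.1 to 567.9 in GFAPCre (median 500), and 656 to 953 in Rbp4Cre_TRAP (median 900). SP1 P10 had 483.6, 568.1 and 461.5, overlapping Syn1Cre, whereas SP1 P28 had 138, 156, 201 and 151, below all of them. BrokenHeart had 378, 601 and 353, and this was its most used desert window with a mean of 444. N2a had 7.44.

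**Figure D3:**
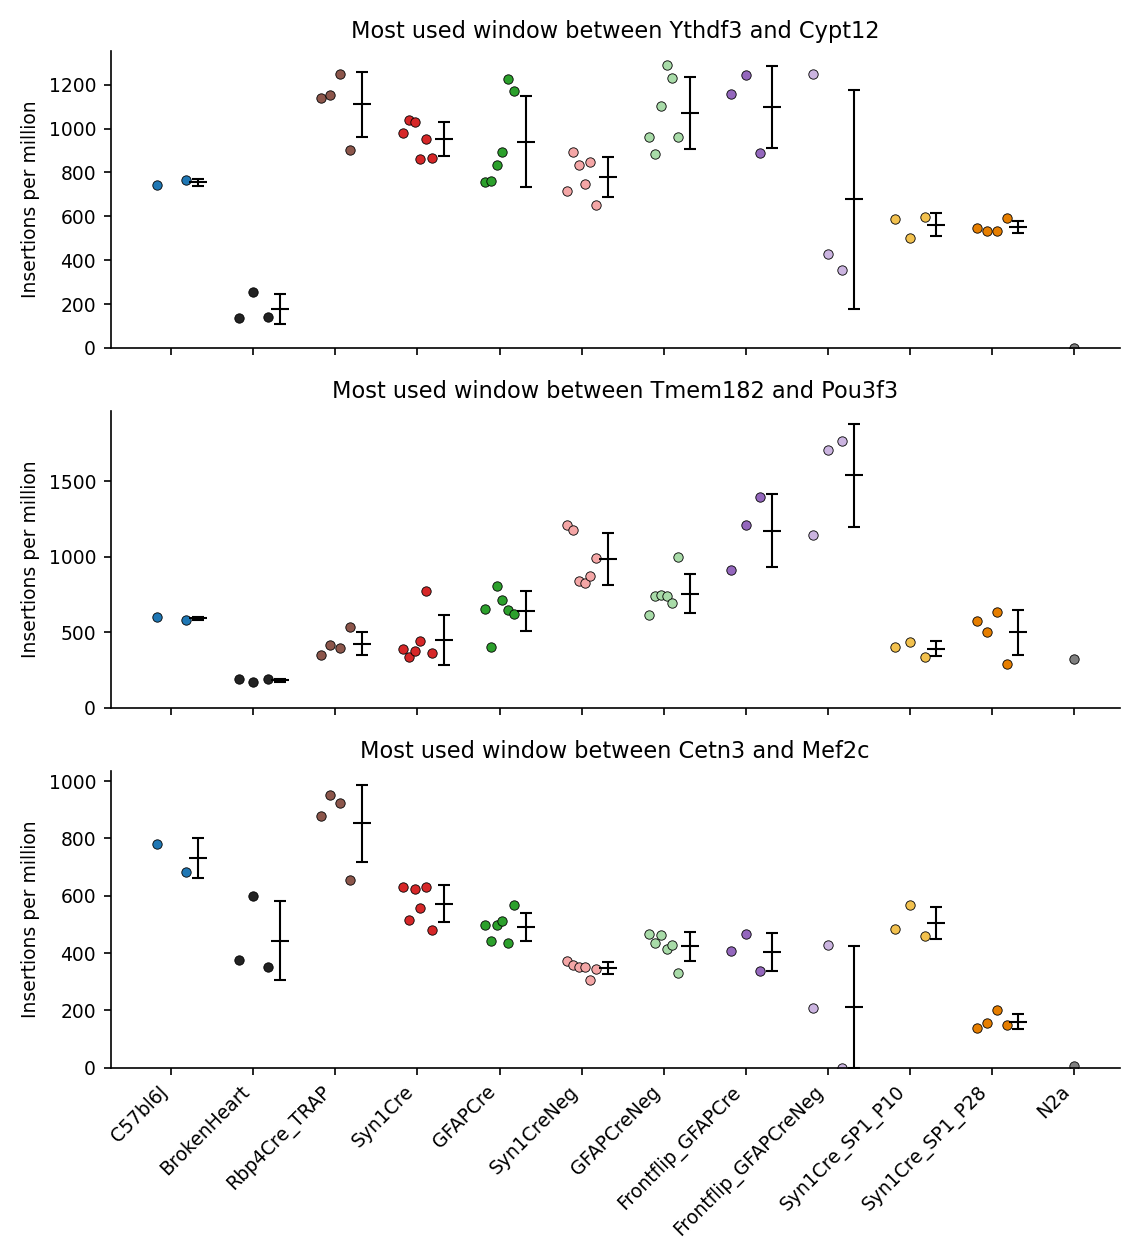
IPM in the most used window of each of the 3 most used desert regions, 1 point per animal, with group mean and SD as bars. Beside Mef2c the SP1 P28 animals (138 to 201) lie below the SP1 P10 animals (461.5 to 568.1), and in the window between Ythdf3 and Cypt12 the BrokenHeart animals (137 to 255) lie below those of C57bl6J (743 and 766).

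Within a desert, use was confined to few windows and the same windows recurred across groups. Of the 15 windows between Tmem182 and Pou3f3, those at 300, 400 and 450 kb from the desert's start had means over groups of 609, 694 and 465 IPM, and the window at 50 kb had 3.82. All 3 overlap the long non-coding RNA Gm29260. Between Ythdf3 and Cypt12 the windows at 50, 150 and 550 kb had 358, 335 and 789, and the last window 4.39. Beside Mef2c the window at 600 kb had 468, and the window at 300 kb, the next highest, 98.7. In N2a, insertions were spread over the Pou3f3 desert (175 at its start, 185 at 100 kb, 324 at 400 kb), whereas the whole Ythdf3 to Cypt12 desert held 2.48 IPM.

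**Figure D4:**
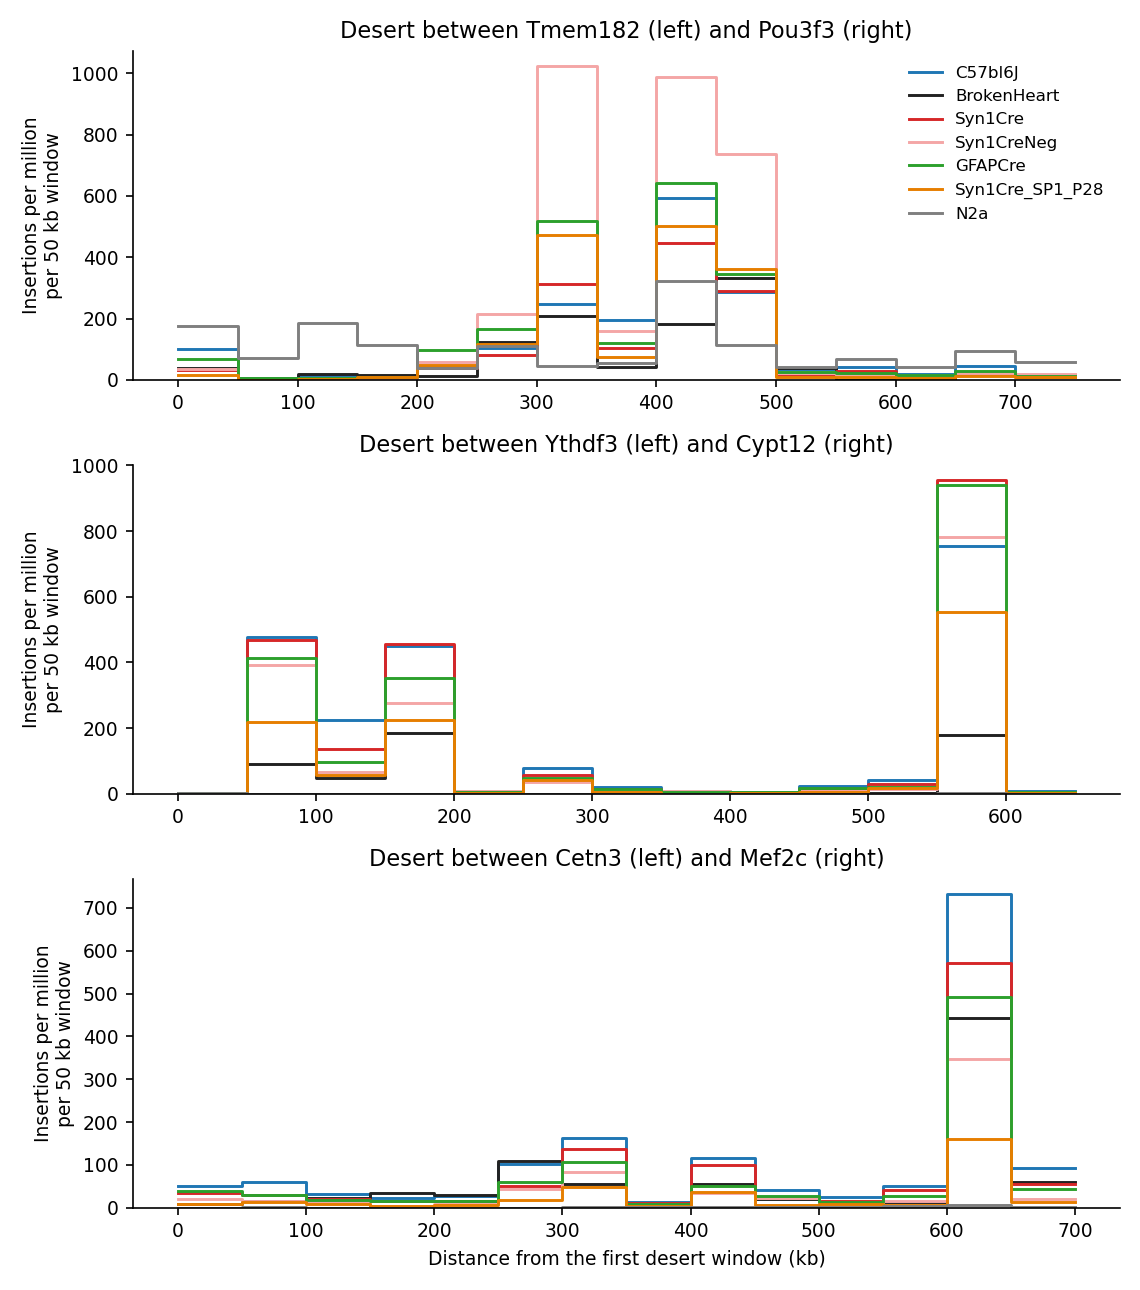
IPM in each 50 kb window along the 3 most used deserts, as group means, with the distance from the first desert window on the horizontal axis. The same few windows lead in the animal groups; Syn1CreNeg reaches 1022 at 300 kb in the desert beside Pou3f3, where BrokenHeart has 209, and N2a is near 0 throughout the desert between Ythdf3 and Cypt12.

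Further most used windows, under the rule that skips neighbours within 200 kb, lay in chr3:16800001-16850000 between Ythdf3 and Cypt12 (mean over groups 358 IPM), chr16:77650001-77700000 between the deubiquitinase gene Usp25 and Cxadr, the receptor of coxsackie and adenoviruses (191), and chr18:55650001-55700000 between Zfp608 and Gramd3 (120). The Usp25 window had 269 and 277 in C57bl6J, 170 to 206 in Syn1Cre (median 199.8) and 199.9 to 249.7 in GFAPCre (median 219.7). Its means were lower in BrokenHeart (128 ± 51), SP1 P28 (129 ± 8.7) and SP1 P10 (111). The rest were chr11:25700001-25750000 beside Bcl11a and Fancl (115), chr4:26900001-26950000 between Manea and the ephrin receptor gene Epha7 (105), chr13:82600001-82650000 beside Mef2c (98.7) and chr4:23800001-23850000 between Pou3f2, a paralogue of Pou3f3, and Mms22l (84.7). Of these windows, those beginning at chr3:16800001, chr11:25700001 and chr4:26900001 had no insertion in N2a, which allows up to 3 insertions, and that at chr13:82600001 had 2.48.

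Single TTAA positions recurred between animals. Over the 46 animals, desert insertions fell on 219801 positions, of which 148287 were used in 1 animal, 4090 in at least 10, 1012 in at least 20 and 286 in at least 30. The position used by the most animals, chr1:41812272-41812275 in Gm29260, took 335 insertions in 45 of 46 animals, and chr3:17322542-17322545 took 401 in 44. In the DNA readout, 56.3% of 6514 desert insertions lay on a position that an SRT animal also used. No share for insertions outside deserts is given here, so the value does not set deserts apart. Insertions on the plus strand made up 50.1% ± 0.39 of desert insertions in BrokenHeart and 50.8% ± 0.21 in Syn1Cre.

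Deserts were next described by their flanking genes, with lists chosen with earlier results of these data known, so no test was made. Shares of windows are of the 3791 desert windows counted over the 220 regions with an insertion. The 22 regions that border a gene from a list of developmental transcription factors held 6.41% of these windows and 24.1% of desert insertions as the mean of groups. Their median use was 8.88 IPM per window, against 4.21 for all 220 regions. They included Pou3f3, Mef2c, Bcl11a, Gata3, Pou3f2 and Nr2f1 among the 20 most used regions, but the range was wide, and the region beside Sox11, an early neuronal factor, had 1.39 per window. The 46 regions beside cell adhesion genes, such as the teneurins, protocadherins and Cdh8, held 38.1% of windows and 23.7% of insertions, with a median of 3.63 per window. The 7 regions beside signalling genes (among them Slit2, neuregulin 3 and Eph receptors) had a median of 3.72, and the 145 regions beside none of the lists 4.35. The first 3 regions weigh on these shares, as 2 of them border a listed transcription factor. The median beside transcription factors was 13.4 in C57bl6J against 6.74 for all regions, 9.87 against 4.68 in Syn1Cre, 4.51 against 1.91 in SP1 P28, 4.16 against 2.51 in SP1 P10 and 10.98 against 8.01 in BrokenHeart.

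The first comparison set the RNA readout against the DNA readout in mice without a Cre line in their name, BrokenHeart against C57bl6J. The desert share was 3.19% ± 0.34 (n = 3) against 3.56% ± 0.24 (n = 2), a difference of -0.37 percentage points that did not pass (p = 0.4 by exact permutation of animals, two-sided, and 0.45 after adjustment over 9 comparisons of the desert share). The smallest p this design allows is 0.1, and the groups overlapped. Over 217 regions used in both groups, 122 were higher and 95 lower in BrokenHeart, with a median log2 ratio of 0.09 and a Spearman correlation of 0.93 across regions (a description, as regions share libraries). BrokenHeart tables were smaller (42511 to 98197 insertions against 1545951 and 2186743), and their construct, readout and counting of repeats differ together, so these cannot be told apart. Reads per insertion, which the window rule does not use, were as high in deserts as elsewhere in BrokenHeart (log2 ratio of desert to rest -0.01 ± 0.07) and lower in C57bl6J (-0.16 ± 0.06), a difference of 0.15 (exact two-sided permutation p = 0.2, adjusted p = 0.3 over 3 comparisons, smallest possible 0.1). Over windows with an insertion in every group the difference turned to -0.43 (adjusted p = 0.17).

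Single windows were compared with the quasi-likelihood test of edgeR over all windows of the autosomes and X (adjusted p under 0.05). Only 23 of 3780 used desert windows passed the low-count filter between BrokenHeart and C57bl6J, so the counts concern the most used windows. Of these, 12 passed the threshold, 2 higher and 10 lower in BrokenHeart, where 51.8% of all 1309 windows tested were called (26.7% higher and 25.1% lower). Scaled by total insertions in place of TMM, which moved the median of all windows by 0.12, the split was 4 higher and 10 lower. Counted as whole desert regions, 44 of 116 were called and the direction turned, with 33 higher and 11 lower, beside 51.3% called of all features (26.6% higher and 24.7% lower). Leaving out BrokenHeart replicate 1, 2 or 3 gave 24 of 737 windows tested (3.26%, beside 4.51% of all windows), 21 of 773 (2.72%, beside 2.56%) and 31 of 811 (3.82%, beside 5.09%), of which 3, 0 and 9 were higher. The number tested rose because the cutoff of the filter follows the median table size, which is that of a BrokenHeart table unless one of them is left out.

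In BrokenHeart against C57bl6J the largest falls among called windows with no overlap between animals, neighbours within 200 kb skipped as in every choice of windows below, were in the 2 leading deserts. At chr3:16850001-16900000 BrokenHeart had 17.2, 30.6 and 94.1 IPM against 224 and 224 (log2 fold change -2.23 ± 0.43 SE, edgeR adjusted p = 1.9e-05). At chr1:41750001-41800000 it had 51.5, 71.3 and 0 against 205 and 186 (-1.71 ± 0.42, adjusted p = 5.9e-04), and at the most used window, chr3:17300001-17350000, the log2 fold change was -1.70 ± 0.22 (adjusted p = 2.8e-09). On distinct positions the last fell by 0.57 on the log2 scale and did not pass (adjusted p = 0.077). No animal overlapped between groups in these windows, and the first 2 passed under every alternative in which they were tested. Those 2 passed the low-count filter through C57bl6J alone. The windows were chosen for their falls, so the falls and their p-values are a description. Higher in BrokenHeart was chr2:8000001-8050000, between the RNA-binding gene Celf2 and Gata3, a zinc-finger factor of T cells and the inner ear, with 172, 153 and 70.6 against 51.8 and 54.4 (log2 fold change 1.64 ± 0.38, edgeR adjusted p = 3.1e-04). That call was lost without BrokenHeart replicate 1 (adjusted p = 0.21) or 2 (0.43), or either C57bl6J animal (0.25 and 0.21), and without the low-count filter (0.28). The other higher window, chr18:55650001-55700000 between Zfp608 and Gramd3, had 120, 91.7 and 212 against 80.2 and 85.5 (0.84 ± 0.36, edgeR adjusted p = 0.045). Its call was lost without any single animal (edgeR adjusted p from 0.64 to 0.96), while without the low-count filter the change was -0.10 (0.91). Both higher windows passed that filter through BrokenHeart alone and were chosen for their rises. The rises and their p-values are therefore a description as well. Named after the values were seen, the Ythdf3 to Cypt12 region as a whole was lower (529 ± 66 against 2107 ± 2.7 IPM, log2 fold change -1.75 ± 0.18, edgeR adjusted p = 1.5e-16), and the region between Adamts5, a protease of the matrix, and N6amt1 was higher (174 ± 26 against 55.5 ± 11, 1.88 ± 0.35, adjusted p = 1.9e-06).

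SP1 P28 against Syn1Cre asked how the SP1 label changed insertion sites in Syn1Cre mice. The desert share was 1.18% ± 0.20 (n = 4) against 2.56% ± 0.25 (n = 6), 2.16-fold lower, with all 4 SP1 animals below all Syn1Cre animals. The difference of -1.37 percentage points had the smallest p that this design allows (exact two-sided permutation p = 0.0048, adjusted p = 0.014). SP1 P28 replicate 4, the largest table of its group with 577609 insertions, had 1.46%, against 2.26% in the smallest Syn1Cre table, replicate 5 with 443158. Across 218 regions used in both groups, 204 had a lower and 14 a higher mean in SP1 P28, with a median log2 ratio of -1.33. Without the 10 most used regions the difference in share was -1.02 percentage points (adjusted p = 0.014), an alternative chosen after seeing the data. Reads per insertion in deserts relative to the rest did not differ by the test (log2 ratio -0.29 ± 0.17 in SP1 P28 and -0.37 ± 0.08 in Syn1Cre, exact two-sided permutation p = 0.38, adjusted p = 0.38). Over windows with an insertion in every group this difference turned from 0.075 to -0.14 (adjusted p = 0.17). The libraries of the 2 groups were never in 1 sequencing pool, and the collection day of Syn1Cre is not given. The effects of pool, age and SP1 cannot be told apart. The Syn1Cre animals also served as the comparison for SP1 P10, Syn1CreNeg, GFAPCre and Rbp4Cre_TRAP, which are therefore not independent of each other.

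Of 221 desert windows that passed the low-count filter, 105 passed the threshold in SP1 P28 against Syn1Cre, 2 higher and 103 lower. Of all 20635 windows tested, 39% were called, 20.2% higher and 18.8% lower, and of the desert windows tested 46.6% were called lower and 0.905% higher. The difference between deserts and the rest was not tested, and without the low-count filter 317 of 3765 desert windows were called (8.42%), beside 17.9% of all windows. With total insertions for scaling, which moved the median of all windows by -0.16, 2 were higher and 139 lower, while the higher share of all calls went from 51.8% to 39.4%. As regions, 149 of 185 were called, 1 higher and 148 lower, beside 39.2% of all features (20.5% higher and 18.7% lower).

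**Figure D5:**
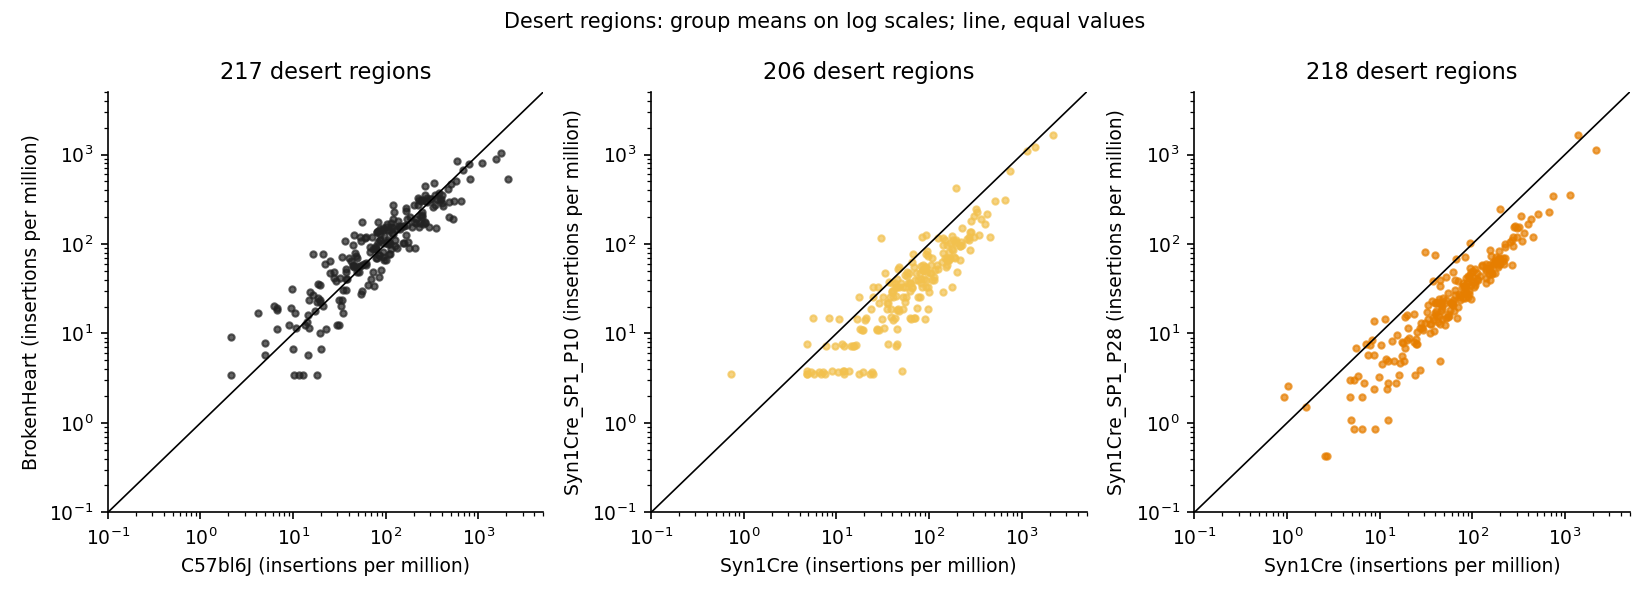
Each point is a desert region, with the mean IPM of 2 groups on log axes and the line of equal values. BrokenHeart scatters on both sides of C57bl6J (122 of 217 regions higher), while in SP1 P10 188 of 206 regions and in SP1 P28 204 of 218 regions lie below Syn1Cre.

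The lower windows chosen for the largest changes lay beside nuclear receptor genes and a potassium channel gene. At chr19:19750001-19800000, 639 kb from Rorb, a nuclear receptor of mid-layer cortical neurons, SP1 P28 had 4.31, 0, 0 and 3.46 IPM against 24.8 to 35.8 in Syn1Cre (median 29.9, log2 fold change -3.29 ± 0.51, edgeR adjusted p = 1.6e-05). At chr2:56550001-56600000, 507 kb from Nr4a2, a nuclear receptor of dopamine neurons and deep cortical cells, the values were 0, 0, 12.2 and 15.6 against 56.4 to 120 (median 83.6, -3.11 ± 0.39, adjusted p = 8.0e-07). At chr1:142250001-142300000, in the desert between the potassium channel gene Kcnt2 and Cdc73, they were 4.31, 0, 0 and 1.73 against 10.6 to 22.7 (median 16.3, -2.96 ± 0.70, adjusted p = 0.0019). These rest on 3, 11 and 2 insertions in SP1 P28, and groups did not overlap in any of the 3 windows. The 3 windows passed the low-count filter through Syn1Cre and were chosen for their falls, so the falls and their p-values are a description. The higher desert windows were 2. The window chr3:35200001-35250000, between Sox2, a factor of neural stem cells and glia, and Atp11b, had 108, 73.4, 85.1 and 62.3 against 18.6 to 54.2 (median 26.7, log2 fold change 1.48 ± 0.29, edgeR adjusted p = 3.0e-04). The window chr18:55500001-55550000, 507 kb from Zfp608, had 64.7, 110, 91.1 and 65.8 against 34.5 to 60.9 (median 50.2, 0.75 ± 0.23, adjusted p = 0.012). Groups did not overlap in either, and all 5 calls passed under every alternative in which they were tested.

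Desert use was also lower in SP1 P10 than in Syn1Cre. The desert share of 1.54% ± 0.036 (n = 3) lay 1.66-fold below that of Syn1Cre, with no overlap, and the difference of -1.02 percentage points reached the smallest p possible (exact two-sided permutation p = 0.012, adjusted p = 0.027). Without any 1 of the 3 SP1 P10 animals the difference stayed between -1.035 and -1.003, but the adjusted p rose to 0.080. SP1 P10 tables held 86842 to 95331 insertions, fewer than any Syn1Cre table. No sequencing pool held libraries of both groups, and the collection day of Syn1Cre is not given. The effects of SP1, pool and age cannot be told apart. Reads per insertion in deserts relative to the rest had a log2 ratio of -0.24 ± 0.09, a difference of 0.13 from Syn1Cre (exact two-sided permutation p = 0.071, adjusted p = 0.21), which turned to -0.11 over windows with an insertion in every group (adjusted p = 0.21). Of 348 desert windows tested, 70 passed the threshold, 6 higher and 64 lower, where 24.2% of all 23744 windows were called (10.5% higher and 13.7% lower). Without SP1 P10 replicate 1 the number was 37 of 491 tested (7.54%, beside 14.6% of all windows). Without replicate 2 it was 27 of 486 (5.56%, beside 13.5%), and without replicate 3 it was 25 of 484 (5.17%, beside 13.5%). As regions, 87 of 190 were called, 2 higher and 85 lower, beside 25% of all features (10.4% higher and 14.6% lower).

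The same window beside Sox2 was the one with the largest rise in SP1 P10, at 92.1, 156 and 105 IPM against 18.6 to 54.2 in Syn1Cre (log2 fold change 1.91 ± 0.39, edgeR adjusted p = 5.7e-04). For comparison, GFAPCre had a mean of 64.1 ± 16 and Syn1CreNeg 46.8 ± 24 there. Frontflip_GFAPCre, a group without the SP1 label, had 127 ± 28, above the means of SP1 P10 (118 ± 34) and SP1 P28 (82.2 ± 19). In chr18:55650001-55700000 beside Zfp608 the SP1 P10 animals had 219, 256 and 199 against 68.3 to 82.3 (median 72.4, 1.52 ± 0.23, adjusted p = 9.2e-06), and on distinct positions 0.78 (adjusted p = 0.091). In chr11:24700001-24750000, 526.4 kb from Bcl11a, they had 219, 145 and 199 against 58.7 to 90.3 (median 73.1, 1.25 ± 0.25, adjusted p = 4.8e-04). In all 3 windows every SP1 P10 animal lay above every Syn1Cre animal. The largest falls were in windows with no insertion in any SP1 P10 animal, so each fold is a lower bound against a floor of 3 insertions over the group. The window chr7:61650001-61700000, in the imprinted neighbourhood of the necdin gene Ndn and holding Mir344d-1 and Mir344d-2, had 27.1 to 35.9 IPM in Syn1Cre (187 insertions) and was at least 3.04-fold lower. The window chr4:23500001-23550000 in the desert beside Pou3f2 had 17.9 to 37.4 (165 insertions) and was at least 2.68-fold lower, and chr1:104200001-104250000, 518 kb from the cadherin gene Cdh20, had 17.2 to 37.2 (147 insertions) and was at least 2.39-fold lower. With no insertion in SP1 P10, these windows passed the low-count filter through Syn1Cre alone and were chosen for their falls. The falls are therefore a description.

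Between the SP1 ages, the desert share of SP1 P28 was 1.30-fold below that of SP1 P10 with no overlap, a difference of -0.36 percentage points (exact two-sided permutation p = 0.057, adjusted p = 0.086, smallest possible 0.029). Only 14 desert windows passed the low-count filter, and 6 were called, 1 higher and 5 lower, where 15.9% of all 2500 windows were called (10.4% higher and 5.56% lower). As regions, 3 of 35 were called, all lower, beside 15.5% of all features (8.96% higher and 6.55% lower). In Syn1Cre_SP1_P28 against Syn1Cre_SP1_P10 the 3 largest falls outside 200 kb of each other lay beside Mef2c, Bcl11a and Zfp608. At chr13:82700001-82750000 beside Mef2c, SP1 P28 had 56.1, 18.4, 48.6 and 26.0 IPM against 230, 167 and 241 in SP1 P10 (log2 fold change -2.37 ± 0.33, edgeR adjusted p = 0.0012). In the window beside Bcl11a the values were 43.1, 64.2, 66.8 and 69.3 against 219, 145 and 199 (-1.42 ± 0.29, adjusted p = 0.0060), and in chr18:55650001-55700000 beside Zfp608 90.6, 138, 72.9 and 86.6 against 219, 256 and 199 (-1.12 ± 0.24, adjusted p = 0.0069). None of these windows overlapped between the ages. Those beside Mef2c and Bcl11a passed the low-count filter through SP1 P10 alone. The windows were chosen for their falls, so the falls and their p-values are a description. The region beside Mef2c as a whole, named after its values were seen, had 351 ± 29 IPM in SP1 P28, 1093 ± 40 in SP1 P10 and 1127 ± 71 in Syn1Cre. Its change between ages was -1.54 ± 0.18 (edgeR adjusted p = 2.3e-04), while SP1 P10 against Syn1Cre gave -0.15 ± 0.20 (adjusted p = 0.60). The 1 higher window, chr1:41850001-41900000 beside Pou3f3, had 401, 312, 541 and 189 against 173, 201 and 147 (1.11 ± 0.30, adjusted p = 0.021). Its call was lost without SP1 P10 replicate 1, 2 or 3 (adjusted p = 0.094, 0.091 and 0.15) and on distinct positions (0.40).

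Neurons and astrocytes, by the Cre line in the sample names, were compared with the same readout. The desert shares of Syn1Cre and GFAPCre overlapped (2.56% ± 0.25 and 2.47% ± 0.15, difference 0.087 percentage points, exact two-sided permutation p = 0.47, adjusted p = 0.47). Among 332 desert windows tested, 20 passed the threshold, 10 in each direction, where 2.84% of all 22468 windows were called (1.54% higher and 1.3% lower). The number was 13 of 367 tested without Syn1Cre replicate 1 (3.54%, beside 1.53% of all windows) and 13 of 359 without Syn1Cre replicate 3 (3.62%, beside 1.63%). It was 13 of 364 without GFAPCre replicate 1 (3.57%, beside 1.44%) and 37 of 378 without Syn1Cre replicate 5 (9.79%, beside 8.17%). As regions, 8 of 185 were called, 7 higher and 1 lower, beside 2.78% of all features (1.51% higher and 1.27% lower). Libraries of Syn1Cre and GFAPCre were sequenced in separate pools. The highest fold change was at chr6:9800001-9850000, 550 kb from Nxph1, which encodes neurexophilin, a secreted ligand of neurexins: Syn1Cre had 17.9 to 31.4 IPM (median 24.9) and GFAPCre 0 to 5.87 (median 2.03, log2 fold change 2.93 ± 0.33, edgeR adjusted p = 3.7e-06). At chr2:45900001-45950000, 783 kb from Zeb2, a zinc-finger homeobox repressor of interneurons and glia, Syn1Cre had 43.7 to 63.2 (median 57.2) and GFAPCre 8.80 to 22.6 (median 13.5, 1.83 ± 0.18, adjusted p = 5.0e-07). A window 876 kb from Bcl11a, chr11:25050001-25100000, had 13.5 to 23.5 against 5.87 to 11.4 (1.22 ± 0.22, adjusted p = 0.0019). This window and the one beside Nxph1 passed the low-count filter through Syn1Cre alone. They were chosen, with the Zeb2 window, for their rises. The rises and their p-values are therefore a description.

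Higher in GFAPCre than in Syn1Cre were windows beside Pou3f3 and Nr2f1. At chr1:41400001-41450000, the start of the Pou3f3 desert, GFAPCre had 48.5 to 108 IPM (median 62.8) and Syn1Cre 19.1 to 43.7 (median 30.4, log2 fold change -1.17 ± 0.21, edgeR adjusted p = 0.0023). On distinct positions the change was -0.57 and did not pass (adjusted p = 0.080). At chr13:78900001-78950000, 701 kb from Nr2f1, a nuclear receptor of cortical area identity, GFAPCre had 26.01 to 49.96 (median 36.2) and Syn1Cre 10.7 to 25.6 (median 17.7, -0.95 ± 0.21, adjusted p = 0.012). In each of these 5 windows no animal of a group overlapped with the other group. All 5 were chosen for their changes, so the changes and their p-values are a description. The window beside Sox2, named here after its values were seen, also had more insertions in GFAPCre (64.1 ± 16 against 30.6 ± 14, -1.09 ± 0.22 as a region, edgeR adjusted p = 0.0058), but its animals overlapped. In the Pou3f3, Nr2f1 and Sox2 windows the GFAPCreNeg means were 34.4, 45.7 and 65.0 IPM. Those of Syn1CreNeg were 35.5, 38.1 and 46.8. Beside Nr2f1 (GFAPCre mean 36.75) and Sox2, GFAPCre was therefore not above its Cre-negative group.

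Cre-positive animals had higher desert shares than Cre-negative ones in both lines. Syn1Cre exceeded Syn1CreNeg 1.30-fold (2.56% ± 0.25 against 1.97% ± 0.079) with all 6 animals above all 6, the smallest p possible (exact two-sided permutation p = 0.0022, adjusted p = 0.0097). Among animals of like size, Syn1Cre replicate 5 (443158 insertions) had 2.26%, and Syn1CreNeg replicates 4, 5 and 6 (417832 to 556145) had 2.01%, 1.91% and 1.95%. The difference was 0.48 percentage points among replicates 1 to 3 of both groups and 0.70 among replicates 4 to 6, which differ in the layout of their labels. No sequencing pool held libraries of both Syn1Cre and Syn1CreNeg, so the effects of pool and of Cre cannot be told apart. GFAPCre exceeded GFAPCreNeg 1.18-fold (2.47% ± 0.15 against 2.10% ± 0.19), again with no overlap and the same p-values. GFAPCreNeg replicate 1 (597230 insertions) had 2.08%, and GFAPCre replicate 3 (600443) had 2.33%. The difference was 0.46 among animals whose libraries shared sequencing pools (exact two-sided permutation p = 0.029, adjusted p = 0.064). In the Frontflip groups the ratio was 1.52 with no overlap, at the smallest p that 3 against 3 allows (exact two-sided permutation p = 0.1, adjusted p = 0.13), and the Cre-negative tables held only 41 to 161 desert insertions. Rbp4Cre_TRAP exceeded Syn1Cre by 0.34 percentage points, with 3 of 4 animals above every Syn1Cre animal (exact two-sided permutation p = 0.048, adjusted p = 0.086), from 657 to 1755 desert insertions per animal.

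Of 123 desert windows tested between Syn1Cre and Syn1CreNeg, 65 passed the threshold, 41 higher and 24 lower in Syn1Cre, where 30.3% of all 14950 windows were called (12.3% higher and 18% lower). With total insertions in place of TMM, which moved the median of all windows by 0.21, the split was 64 higher and 19 lower. All windows turned with it, from 40.6% higher among the calls to 65.1%. As regions, 98 of 168 were called, 89 higher and 9 lower, beside 30.4% of all features (12.3% higher and 18.1% lower). Among called windows with no overlap the one beside Zeb2 had the highest fold change, at 43.7 to 63.2 IPM in Syn1Cre and 4.79 to 12.6 in Syn1CreNeg (median 9.78, log2 fold change 2.43 ± 0.27, edgeR adjusted p = 1.8e-06). At chr5:126500001-126550000, between Gm4868 and the membrane protein gene Tmem132c, the values were 23.4 to 39.4 against 3.60 to 18.6 (1.72 ± 0.32, adjusted p = 2.3e-04), and at chr13:82700001-82750000 beside Mef2c 87.7 to 130 against 18.6 to 52.1 (1.32 ± 0.21, adjusted p = 4.4e-05). The largest fall was at chr1:41700001-41750000 beside Pou3f3, where Syn1Cre had 199 to 661 (median 248) and Syn1CreNeg 797 to 1323 (median 968, -1.77 ± 0.26, adjusted p = 1.9e-05). The groups did not overlap in these 4 windows, where pool and Cre cannot be told apart either. Those beside Zeb2 and Tmem132c passed the low-count filter through Syn1Cre alone. All 4 were chosen for their changes, so the changes and their p-values are a description.

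Between GFAPCre and GFAPCreNeg, 7 of 163 desert windows tested passed the threshold, 5 higher and 2 lower, where 6.14% of all 16934 windows were called (1.2% higher and 4.94% lower). With total insertions for scaling the split was 7 higher and 1 lower, and the higher share of all calls went from 19.5% to 39.3%. The number was 14 of 178 tested without GFAPCre replicate 3 (7.87%, beside 10% of all windows) and 4 of 183 without GFAPCreNeg replicate 2 (2.19%, beside 4.42%). As regions, 20 of 174 were called, all of them higher, beside 6.28% of all features (1.3% higher and 4.98% lower). At chr18:49100001-49150000, between Eno1b and Dtwd2, GFAPCre had 22.8 to 39.0 IPM (median 29.4) and GFAPCreNeg 4.94 to 19.2 (median 12.6, log2 fold change 1.18 ± 0.26, edgeR adjusted p = 0.0054, and 0.055 among pool-sharing animals). At chr9:112800001-112850000, 563.7 kb from Arpp21, a neuronal phosphoprotein, the values were 38.3 to 54.3 against 4.81 to 29.7 (0.94 ± 0.21, adjusted p = 0.0061). At chr13:82300001-82350000 beside Mef2c they were 28.6 to 63.4 against 19.2 to 24.7 (0.73 ± 0.23, adjusted p = 0.049), a call that was lost without GFAPCre replicate 1, 4, 5 or 6 or any 1 GFAPCreNeg animal, with DESeq2, without the low-count filter and on distinct positions (adjusted p from 0.054 to 0.13). Each of these 3 windows separated the animals of the groups. They were chosen for their rises, so the rises and their p-values are a description.

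N2a shared the Pou3f3 desert with the brain and otherwise differed from it in several leading deserts. Its most used desert region lay between Tenm3, a teneurin that guides axon wiring, and Aga, with 1961 IPM against 267 as the mean of the animal groups. The Pou3f3 desert followed with 1533 against 2309, and the desert between Tenm2, another teneurin, and Mat2b with 1273 against 323. The deserts beside Mef2c (22.3) and Bcl11a (49.6) had far fewer insertions in the cell line than in any group of animals. With a single table this comparison has no replicate check.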

How the data were processed

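Insertion position, read count and strand are given line by line in the deposited tables. The read counts are the authors' whole-number counts as deposited. The submitters' processing notes name mm10, Novoalign and Bowtie2 with no version or role. Lines were counted per 50 kb window and divided by the table's total to give insertions per 1000000 insertions (IPM). BrokenHeart positions were shifted by -1 base. Gene bodies came from the RefSeq GRCm38.p6 table. Desert shares and read ratios were compared by exact two-sided permutation of animals with Benjamini-Hochberg adjustment over 9 and 3 comparisons. Windows of all autosomes and X were tested by the quasi-likelihood test of edgeR 4.0.16 (R 4.3.3, TMM, filterByExpr), with adjustment over all windows tested in each of 7 comparisons, and the procedure was tested on simulated data. DESeq2 1.42.0 was an alternative. Python 3.11.15, pandas 2.3.3, numpy 2.4.6, scipy 1.17.1 and matplotlib 3.10.9 were used. Windows named are the 10 most used over groups, the most used of each group, and up to 3 called in each direction per comparison whose animals do not overlap, skipping neighbours within 200 kb. The regions, windows and gene lists were chosen with earlier results of these data known. Frontflip and Rbp4Cre_TRAP tables were compared by share only, because of their size.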

Additional observations from a re-analysis of the deposited data

Results flagged for a closer look

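In 72 sets of 4 to 10 animals, 6 held an animal that stood apart from the others of its group by Dixon's criterion, where chance gives about 1 in 20. At chr1:41800001-41850000 beside Pou3f3, Syn1Cre replicate 5, the smallest table of its group, had 776.2 IPM (insertions per 1000000 of the table), against 338.7 to 442.5 in the other 5 animals. In the same window GFAPCreNeg replicate 6, also the smallest of its group with 208057 insertions, had 999.7 against 614.5 to 744.3. That animal also stood apart beside Zfp608 at chr18:55650001-55700000, with 134.6 against 63.63 to 86.26, and beside Mef2c at chr13:82600001-82650000, with 24.03 against 78.86 to 100.7. In the latter window GFAPCre replicate 4 had 128.5 against 94.93 to 107.3. The ratio of reads per insertion in deserts to the rest was 1.029 in Syn1CreNeg replicate 2 and 0.9649 to 0.9855 in the other 5.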

How the results depend on the processing

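Desert shares are differences in percentage points. With deserts 250 kb from genes, Rbp4Cre_TRAP against Syn1Cre was 0.8339 and passed (adjusted p = 0.021 by exact permutation). With every annotated gene bounding deserts, which leaves 595 windows, SP1 P10 against Syn1Cre (-0.01082), Syn1Cre against Syn1CreNeg (0.005752) and GFAPCre against GFAPCreNeg (0.002217) no longer passed and Rbp4Cre_TRAP against Syn1Cre turned to -0.003456. Syn1Cre against GFAPCre turned to -0.07466 with at least 2 reads per insertion and to -0.01269 with Syn1Cre animals 1 to 3. Syn1Cre against Syn1CreNeg was 0.4802 in animals 1 to 3 and 0.7028 in animals 4 to 6, at the smallest exact p possible (0.1), and pool-sharing GFAPCre against GFAPCreNeg was 0.4639. With the replicate number as a replicate block the calls for SP1 P28 (-1.377) and SP1 P10 (-0.9149) against Syn1Cre and for Syn1Cre (0.5915) and GFAPCre (0.3745) against their Cre-negative groups were lost, with exact p of 0.125, 0.25, 0.03125 and 0.03125, each the smallest possible. The numbers did not pair the animals (correlations of deviations from -0.20 to 0.18). Under the block, 14 of 332 desert windows were called for Syn1Cre against GFAPCre (4.22%, beside 1.81% of all windows). For Syn1Cre against Syn1CreNeg it was 61 of 123 (49.6%, beside 25.6%), and for GFAPCre against GFAPCreNeg 7 of 163 (4.29%, beside 5.72%). Over windows with an insertion in every group, the differences in reads per insertion turned to -0.4291 (BrokenHeart), -0.1398 (SP1 P28) and -0.1143 (SP1 P10). The causes were not tested.

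Desert windows called, as regions, were 44 of 116 for BrokenHeart against C57bl6J, 3 of 35 for SP1 P28 against P10 and 8 of 185 for Syn1Cre against GFAPCre. Against their Cre-negative groups they were 98 of 168 for Syn1Cre and 20 of 174 for GFAPCre, and the shares of all features are given above. Without the low-count filter they were 68 for BrokenHeart (1.81% of desert windows, beside 5.72% of all windows), 317 for SP1 P28 (8.42%, beside 17.9%) and 107 for SP1 P10 (2.84%, beside 13.8%) against Syn1Cre, 31 between Syn1Cre and GFAPCre (0.823%, beside 2.02%), and 232 (6.16%, beside 11.9%) and 18 (0.479%, beside 2.66%) for Syn1Cre and GFAPCre against their Cre-negative groups. On distinct positions they were 6 of 14 tested for BrokenHeart (42.9%, beside 47.2% of all windows). For SP1 P28 against P10 they were 2 of 10 (20%, beside 13.1%), and for GFAPCre against GFAPCreNeg 3 of 122 (2.46%, beside 4.56%). With DESeq2 they were 44 of 348 for SP1 P10 against Syn1Cre (12.6%, beside 18.6%) and 4 of 163 for GFAPCre against GFAPCreNeg (2.45%, beside 4.49%). Leaving out 1 animal gave 9 to 31 for BrokenHeart, 25 to 92 for SP1 P10 against Syn1Cre, 13 to 37 between Syn1Cre and GFAPCre and 4 to 14 between GFAPCre and its Cre-negative group, and a share difference of -1.075 to -0.9527 for SP1 P10 against Syn1Cre. The number tested changed as well. For BrokenHeart it was 9 of 28 (32.1%, beside 13% of all windows) without C57bl6J replicate 1. For SP1 P10 it was 92 of 356 (25.8%, beside 27.5%) without Syn1Cre replicate 5. The other shares are given above with the windows. The Zfp608 window of BrokenHeart against C57bl6J turned to -0.09855 without the filter. Of the values of named windows, 129 under other settings and 273 with 1 animal left out kept direction and call, and 9 and 22 lost the call.

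Without the 3 or the 10 most used regions, alternatives chosen after seeing the data, all 9 share comparisons kept their direction and their side of the threshold. Depth limits the Frontflip_GFAPCreNeg animals (41 to 161 desert insertions) and BrokenHeart, where 23 desert windows could be tested. Counts of lines are not independent molecules, and window sequence was not analysed here.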
